A study of Caenorhabditis elegans with 47 samples.

Results

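The genes described here are 10 genes of the Caenorhabditis elegans neuromuscular junction: 8 for receptors or receptor clustering and 2 for acetylcholinesterases, the enzymes that break acetylcholine down. They are unc-29, lev-1, unc-38, unc-63, lev-8, acr-16, lev-10, unc-49, ace-1 and ace-2. Each was read from a probe set that the platform annotation gives to that gene alone, and where a gene had several such probe sets, from the one with the highest mean over all arrays. All 10 were measured, among 17118 genes tested. On these arrays 6 of the 10 were lower 16 h after a temperature upshift than at 8 h in at least 1 strain, with 1 dim array left out. Taken strain by strain, 3.52%, 1.84% and 12% of all genes were lower in Abeta, GFP::degron and GFP worms. The share of all genes lower in at least 1 strain is not given, so counts of the 10 by strain follow below. With the dim array in the fit 0 of the 10 passed in any strain (limma, with 3, 2 and 0 at an unadjusted p under 0.05).

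In nematode body-wall muscle, acetylcholine excites and GABA inhibits. Acetylcholine acts on a levamisole-sensitive receptor, built from the alpha subunits UNC-38, UNC-63 and LEV-8 and the non-alpha subunits UNC-29 and LEV-1, and on a nicotine-sensitive receptor made of ACR-16 alone. LEV-10 is a transmembrane protein that gathers the levamisole receptors at synapses, and UNC-49 is the GABA-gated chloride channel of muscle. ACE-1 is the acetylcholinesterase mainly of muscle and ACE-2 that mainly of neurons. Several of the receptor genes are also active in neurons.

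The study compared worms that express Abeta (the amyloid peptide of Alzheimer's disease, 15 arrays) with worms that express GFP::degron (GFP joined to a tag that marks a protein for degradation, 16 arrays) and with worms that express GFP (16 arrays). Every group was raised at 16 °C up to the early part of the third larval stage and was then shifted to 25 °C, so all share the upshift and each carries a foreign protein. The harvest at the shift is T0, and harvests at 4 h intervals up to 20 h are T4 to T20. There were 4 arrays for each strain at 8 h and again at 16 h. At 12 h there were 4 for Abeta, 5 for GFP::degron and 5 for GFP worms, and each remaining harvest had 1 array a strain. Which promoter drives each transgene is not given in these sources. The RNA was that of worms, so fewer cells of a type and less RNA per cell cannot be told apart.

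Values are log2(intensity + 1) of the deposited probe set intensities, called the level below. Differences are log2 differences of levels, set against the median over all genes in that comparison, with the standard error (SE) of limma. A gene passed when its adjusted p, Benjamini-Hochberg over the 17118 genes and belonging to the unshifted difference, was under 0.05. That median lay beyond 0.1 only for T16 minus T8 in GFP worms (-0.15), T16 minus T12 in GFP::degron worms (0.13), GFP::degron minus GFP at T16 (0.13) and GFP::degron minus GFP in the T16 minus T8 change (0.14). Median intensity was 21.3 on GFP T8 replicate 3, against 66.7 to 118 on the other 46 arrays. All 10 genes were lowest on that array apart from ace-2, which was lower on at least 1 other. It was left out of the 37 fitted arrays from T8, T12 and T16, and results with it are given beside those without it. Since the groups share 1 estimate of spread, that array also moves the adjusted p of comparisons that hold no GFP T8 array.

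**Figure D1:**
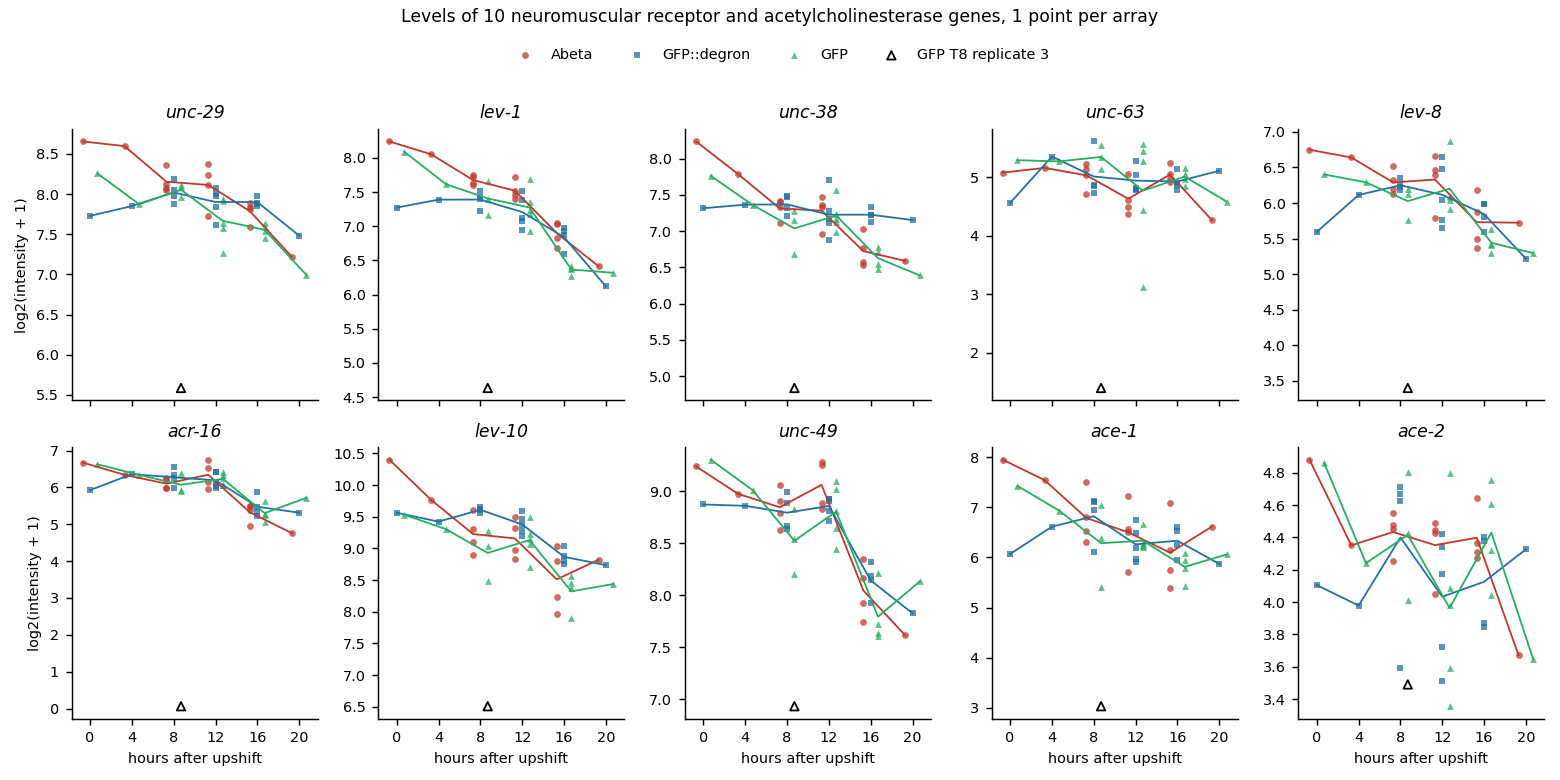
Levels of the 10 genes, as log2(intensity + 1), against hours after the upshift. Each point is an array and lines join group means, with Abeta, GFP::degron and GFP worms offset from left to right. The open triangle is GFP T8 replicate 3, which the means leave out. In acr-16 and in the unc-49 probe set used, all 3 strains drop between T12 and T16.

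From T8 to T16, 5 of the 10 genes fell in Abeta worms, where 3.52% of all genes fell. In GFP::degron worms 4 of 10 fell, against 1.84% of all genes, and in GFP worms 5 of 10, against 12% of all genes. Acr-16, lev-1, lev-10 and unc-49 fell in all 3 strains. Ace-1, ace-2, lev-8 and unc-63 did not pass in any of them. The members' median difference was -0.61 in Abeta, -0.49 in GFP::degron and -0.39 in GFP worms, where that of all genes is 0 by construction. With GFP T8 replicate 3 in the fit, limma called 0 of the 10 in each strain, with 3, 2 and 0 at an unadjusted p under 0.05 in Abeta, GFP::degron and GFP worms, where 0.105%, 0.0292% and 0.578% of all genes fell. Leaving out 1 further array left 3 in Abeta worms (without T16 replicate 3) and 2 in GFP worms (without T8 replicate 1). The count in GFP::degron worms became 1 (without T16 replicate 2, T16 replicate 3 or T8 replicate 2) or 2 (without T16 replicate 4, T8 replicate 1 or T8 replicate 4).

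Unc-49, the muscle GABA receptor, stood at 9.06, 8.91, 8.63 and 8.79 at T8 in Abeta worms, at 8.83, 9.28, 9.25 and 8.89 at T12, and at 8.35, 7.93, 7.74 and 8.17 at T16. In GFP::degron worms its 4 arrays at T16 lay between 7.92 and 8.32, below the 8.64 to 8.99 of T8. In GFP worms the T16 levels were 8.22, 7.61, 7.63 and 7.72, against 8.83, 8.20 and 8.54 at T8 and 6.94 on the dim array. T16 and T8 did not overlap in Abeta and GFP::degron worms, and in GFP worms replicate 1 of T16 lay just above replicate 2 of T8. Here and below, overlap describes the arrays and is not a test. The share of all genes without overlap is not given. The T16 minus T8 difference was -0.77 ± 0.16 in Abeta (adjusted p = 0.00134), -0.70 ± 0.16 in GFP::degron (adjusted p = 0.0188) and -0.58 ± 0.18 in GFP worms (adjusted p = 0.00329). Including the dim array, these adjusted p-values were 0.0605, 0.408 and 0.448.

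The array holds 4 probe sets for unc-49, which makes several splice forms, and they did not move alike. The probe set used and a second one both fell from T8 to T16 in each strain, the second with differences of -0.79 ± 0.18, -0.77 ± 0.18 and -0.62 ± 0.20 in Abeta, GFP::degron and GFP worms. The other 2, both dimmer, did not pass in any strain, with differences between -0.26 and 0.11. Which splice forms each probe set reads was not tested.

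Acr-16, the nicotine-sensitive receptor, followed the same course. In Abeta worms its levels at T16 were 5.38, 5.49, 4.95 and 5.48, against 6.25, 6.20, 5.99 and 5.98 at T8. GFP::degron worms had 5.87, 5.48, 5.24 and 5.32, against 6.54, 6.25, 5.99 and 6.33 at T8. In GFP worms they were 5.63, 5.27, 5.07 and 5.24, against 6.38, 5.93 and 5.91 at T8 and 0.06 on the dim array. T16 and T8 did not overlap in any strain once the dim array was left out. The differences were -0.74 ± 0.17 (adjusted p = 0.00298), -0.84 ± 0.17 (adjusted p = 0.00816) and -0.62 ± 0.19 (adjusted p = 0.0036) in Abeta, GFP::degron and GFP worms, which is 0.598, 0.557 and 0.65 of the T8 value. Once the dim array was added the sign turned in GFP worms, to 0.41 with an adjusted p of 0.561, while the same differences in Abeta and GFP::degron worms had adjusted p-values of 0.858 and 0.929.

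Among the levamisole receptor subunits, lev-1 fell in every strain. Its levels at T16 were 7.04, 6.83, 6.68 and 7.05 in Abeta worms, against 7.75, 7.72, 7.60 and 7.63 at T8. GFP::degron worms had 6.97, 6.59, 6.87 and 6.92 at T16, against 7.43, 7.51, 7.22 and 7.40 at T8. GFP worms had 6.27, 6.38, 6.41 and 6.40 at T16, against 7.66, 7.16 and 7.40 at T8 and 4.63 on the dim array. Without that array the 2 times did not overlap in any strain. The difference was -0.74 ± 0.14 in Abeta (adjusted p = 0.000326), -0.59 ± 0.14 in GFP::degron (adjusted p = 0.0188) and -0.89 ± 0.15 in GFP worms (adjusted p = 2.65e-05). Including the dim array, the adjusted p-values were 0.299, 0.802 and 0.589.

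The alpha subunit gene unc-38 fell in Abeta worms alone among the 3 tests, although no test showed that the strains differ in this change. Its T16 levels in Abeta worms were 6.76, 6.57, 6.53 and 7.03, all under the T8 levels of 7.41, 7.33, 7.11 and 7.41, for a difference of -0.55 ± 0.15 (adjusted p = 0.0102, and 0.426 with the dim array). In GFP::degron worms the T16 levels of 7.13 to 7.33 overlapped the T8 levels of 7.21 to 7.49 (difference -0.19 ± 0.15, adjusted p = 0.706). GFP worms had -0.26 ± 0.17 (adjusted p = 0.076). The non-alpha subunit gene unc-29 fell in GFP worms, where its T16 levels of 7.46, 7.54, 7.58 and 7.64 lay under the 8.11, 8.09 and 7.96 of T8 (-0.35 ± 0.14, adjusted p = 0.0119). Adding the dim array, at 5.59, gave -0.21 (adjusted p = 0.867), with the unshifted difference turned positive. It was at -0.33 ± 0.13 in Abeta (adjusted p = 0.0693) and -0.16 ± 0.13 in GFP::degron worms (adjusted p = 0.717).

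Lev-8, the alpha subunit gene named for levamisole resistance, had differences of -0.53 ± 0.21, -0.45 ± 0.21 and -0.44 ± 0.23 in Abeta, GFP::degron and GFP worms, with adjusted p-values of 0.0858, 0.308 and 0.0646. Its T16 arrays lay below all T8 arrays in GFP::degron worms (5.60 to 5.99, against 6.18 to 6.35). They did so in GFP worms without the dim array (5.30 to 5.63, against 5.76 to 6.20). In Abeta worms they overlapped (5.37 to 6.19, against 6.13 to 6.52). Unc-63, another alpha subunit gene, was dim on this array: its levels on the 46 other arrays ran from 3.12 to 5.61. Its T16 minus T8 differences were 0.05 ± 0.31, -0.13 ± 0.31 and -0.19 ± 0.33, with a larger SE than those of the other receptor genes.

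Lev-10, which clusters the levamisole receptors, fell in all 3 strains. In Abeta worms its levels at T16 were 9.03, 7.97, 8.24 and 8.80, against 9.61, 8.90, 9.09 and 9.30 at T8, and the ranges overlapped. In GFP::degron worms the T16 levels of 9.04, 8.75, 8.88 and 8.80 all lay below the T8 levels of 9.57, 9.62, 9.60 and 9.65. GFP worms had 8.37, 7.90, 8.46 and 8.56 at T16, against 9.27, 8.48 and 9.03 at T8 and 6.51 on the dim array, with overlap between replicate 4 of T16 and replicate 2 of T8. The differences were -0.68 ± 0.20 (adjusted p = 0.0182), -0.79 ± 0.20 (adjusted p = 0.0327) and -0.46 ± 0.22 (adjusted p = 0.0453) in Abeta, GFP::degron and GFP worms, and 0.374, 0.585 and 0.998 were the adjusted p-values with the dim array. Of 46 alternative fits, which include leaving out each array, 5, 9 and 15 lost these calls. The other 2 probe sets of lev-10 had negative differences in each strain, from -0.78 to -0.19, and neither passed. By the RefSeq table lev-10 shares its locus with eat-18, which no probe set names alone.

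On the probe sets used, the acetylcholinesterase genes did not pass in any strain. Ace-1 had T16 minus T8 differences of -0.66 ± 0.34, -0.53 ± 0.34 and -0.32 ± 0.37 in Abeta, GFP::degron and GFP worms. Its arrays scattered more than those of the receptors: in Abeta worms they were at 7.09, 5.38, 5.76 and 6.15 at T16, against 7.50, 6.31, 6.52 and 6.81 at T8. A second, dimmer ace-1 probe set lay at 4.73 to 5.01 at T16 in GFP::degron worms, against 5.56 to 6.02 at T8. In Abeta worms it lay at 4.25 to 5.22, against 4.70 to 6.06. In GFP worms it lay at 3.79 to 5.25, against 1.26 to 5.89 with the dim array included. No test of this probe set is given here. Ace-2 was read at low intensity, with levels from 3.36 to 4.88 on the 46 arrays, and had differences of 0.00 ± 0.26, -0.32 ± 0.26 and 0.16 ± 0.28. Its other probe set was dimmer still, with a mean level of 3.86 over all 47 arrays.

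The interval was also split at T12. From T8 to T12 none of the 10 passed in any strain (limma, with 0, 0 and 1 of 10 at an unadjusted p under 0.05 in Abeta, GFP::degron and GFP worms), when 0.286%, 2.24% and 0.234% of all genes passed. From T12 to T16, 6 of 10 fell in Abeta worms (9.28% of all genes fell), 2 in GFP::degron worms (5.24%) and 6 in GFP worms (20.7%). The same 6 genes fell in Abeta and GFP worms: lev-1, unc-38, lev-8, acr-16, lev-10 and unc-49. The call of lev-8 in Abeta worms (adjusted p = 0.0466) was lost in 22 of 46 alternative fits, which include leaving out each array. That of lev-10 in Abeta worms was lost in 6 of 46. Acr-16 and unc-49 were the 2 that fell in GFP::degron worms too. Unc-29, which fell from T8 to T16 in GFP worms, did not pass in either step there, at -0.35 ± 0.14 from T8 to T12 (adjusted p = 0.183) and -0.13 ± 0.13 from T12 to T16 (adjusted p = 0.505). Lev-1 and lev-10, which fell from T8 to T16 in GFP::degron worms, did not pass in either step in that strain, with adjusted p-values of 0.499 and 0.578 from T8 to T12 and of 0.0646 and 0.0822 from T12 to T16. Both steps share the T12 arrays, and they were not tested against each other.

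Unc-49 had T16 minus T12 differences of -1.05 ± 0.16 (adjusted p = 0.000192), -0.84 ± 0.16 (adjusted p = 0.00672) and -1.03 ± 0.16 (adjusted p = 1.6e-05) in Abeta, GFP::degron and GFP worms. It still passed with the dim array in Abeta (adjusted p = 0.00858) and GFP worms (adjusted p = 0.00329), but not in GFP::degron worms (adjusted p = 0.146). These values are of the probe set used. The second unc-49 probe set had lower means at T16 as well, 7.92, 8.05 and 7.68, against 9.14, 8.83 and 8.72 at T12. The 2 dimmer ones had higher means at T16 in each strain. They were at 5.49, 5.41 and 5.36, against 5.12, 5.22 and 5.14, and at 5.725, 5.75 and 5.67, against 5.48, 5.45 and 5.27. Acr-16 had -1.06 ± 0.17, -0.84 ± 0.17 and -0.95 ± 0.17, and did not pass in any strain with the dim array (adjusted p = 0.466, 0.629 and 0.338). Lev-1 had -0.66 ± 0.14, -0.49 ± 0.13 and -0.93 ± 0.13, of which the change in GFP worms passed with the dim array as well (adjusted p = 0.0493). With that array 1, 0 and 2 of the 10 fell in Abeta, GFP::degron and GFP worms, where 0.789%, 0.0117% and 7.19% of all genes did. Without Abeta T16 replicate 3 the count was 3 in Abeta worms, and leaving out the same replicate number of GFP::degron at T16 gave 1 in that strain. The comparisons with T12 were added after the data were seen.

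**Figure D2:**
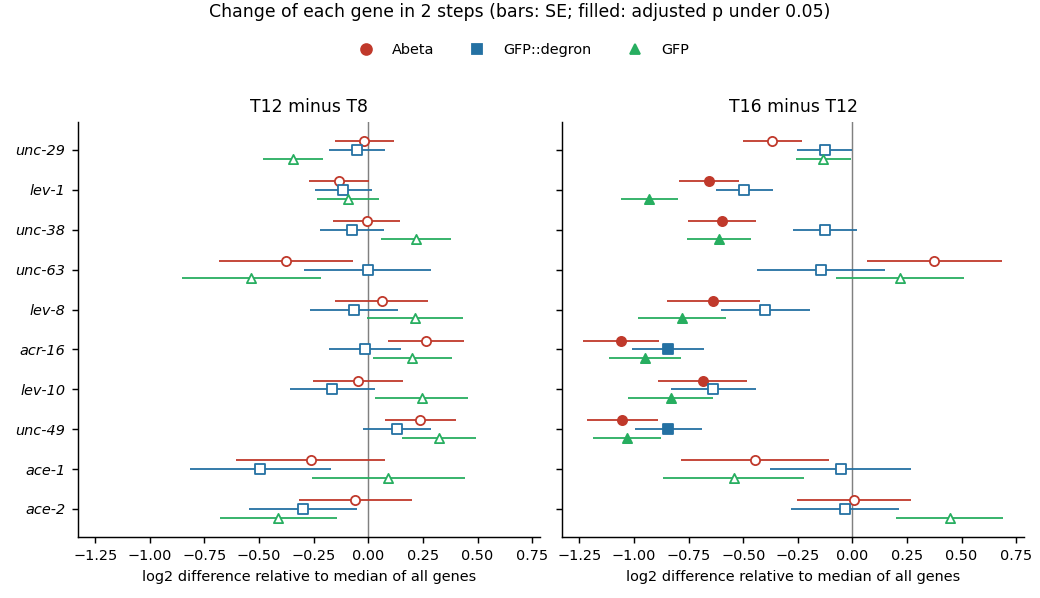
Log2 difference of each gene relative to the median of all genes, for T12 minus T8 (left) and T16 minus T12 (right), in Abeta, GFP::degron and GFP worms from top to bottom within each gene. Bars are SE and filled points have an adjusted p under 0.05. No point is filled on the left, and acr-16 and unc-49 are filled in all 3 strains on the right.

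The first and last hours have 1 array per strain, so the 3 strains served as repeats of each time step in a fit with strain as a block. From T0 to T4 none of the 10 passed, as none of all genes did (limma, 0% of 17118, with 954 genes and 0 members at an unadjusted p under 0.05). From T0 to T20, 8 of the 10 fell, against 9.21% of all genes, all but unc-63 and ace-2. Lev-1 was at 6.42, 6.12 and 6.32 at T20 in Abeta, GFP::degron and GFP worms, against 8.24, 7.27 and 8.09 at T0, a difference of -1.57 ± 0.21 (adjusted p = 0.00256). Unc-49 was at 7.62, 7.83 and 8.13, against 9.24, 8.87 and 9.30 at T0 (-1.26 ± 0.19, adjusted p = 0.00423). Each of the 8 genes was lower at T20 in 3 of 3 strains, and the share of all genes that were is not given.

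Lev-10 (-1.15 ± 0.20), acr-16 (-1.13 ± 0.29), unc-38 (-1.05 ± 0.30), unc-29 (-0.97 ± 0.27), ace-1 (-0.95 ± 0.28) and lev-8 (-0.82 ± 0.21) had adjusted p-values between 0.00741 and 0.0496. The GFP::degron array of T0 was low for most of them, with ace-1 at 6.07, against 7.95 in Abeta and 7.43 in GFP worms at T0. That array also had the lowest median intensity (66.7) of the 46 arrays other than GFP T8 replicate 3, and levels were not scaled. Whether its low intensity accounts for these levels was not tested. Leaving out a strain left 0 (without Abeta), 1 (without GFP) or 8 (without GFP::degron) of the 10 past the threshold, with 2 strains in each fit. The share of all genes that passed in these fits is not given, so the counts are not a result about the members alone. These arrays do not include the dim one.

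No difference between strains in the time course passed. In none of the 3 tests of the difference between strains in T16 minus T8 did a member pass (limma, 0 of 10 each, with 0, 1 and 0 at an unadjusted p under 0.05 for Abeta minus GFP, GFP::degron minus GFP and Abeta minus GFP::degron), where 0.0117%, 0.0818% and 0.00584% of all genes did. For lev-1, the member with the lowest p among them, GFP::degron minus GFP was 0.35 ± 0.20 (adjusted p = 0.392). For unc-38, Abeta minus GFP::degron was -0.41 ± 0.22 (adjusted p = 1).

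Averaged over T8, T12 and T16, Abeta worms had 1 member higher than GFP worms, lev-1, where 2.68% of all genes were higher. The difference was 0.33 ± 0.080 (adjusted p = 0.0134), and 0.41 with an adjusted p of 0.109 with the dim array (0 of 10 passed, where 1.09% of all genes were higher). It did not pass without GFP T8 replicate 2. At T16, lev-1 was at 6.68 to 7.05 in Abeta worms and at 6.27 to 6.41 in GFP worms, without overlap (0.47 ± 0.14, adjusted p = 0.0328, against 1.62% of all genes higher), and with the dim array its adjusted p was 1. That call at T16 was also lost on leaving out replicate 1 or 4 of Abeta, or replicate 1, 2 or 3 of GFP, at that time. Against GFP::degron worms no member of the Abeta strain passed (limma, 0 of 10, with 2 at an unadjusted p under 0.05, lev-1 higher and lev-10 lower), where 3.22% of all genes did, nor did any at T16 (0 of 10, with 1 at an unadjusted p under 0.05, where 0.123% of all genes did).

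The comparison of GFP::degron with GFP worms shares its GFP arrays with that of Abeta worms. GFP::degron worms had 2 members higher than GFP worms, lev-10 and unc-38, where 15.2% of all genes were higher. With 10 members, a count of 2 is near that share and is not a result about the members as a group. Lev-10 differed by 0.45 ± 0.12 (adjusted p = 0.00278) and unc-38 by 0.28 ± 0.089 (adjusted p = 0.00976). Both still passed with the dim array (adjusted p = 0.0111 and 0.0328), when 14.5% of all genes were higher. All 3 probe sets of lev-10 passed in the fit of single probe sets, at 0.44, 0.39 and 0.38. At T16 alone, unc-38 was at 7.22, 7.22, 7.33 and 7.13 in GFP::degron worms and at 6.48, 6.71, 6.54 and 6.77 in GFP worms, without overlap (0.47 ± 0.15, adjusted p = 0.00587). Lev-1 was also higher at T16 in GFP::degron worms (0.35 ± 0.14, adjusted p = 0.0135), where 14.5% of all genes were. These 2 calls at T16 are again near the share over all genes. Neither passed at T16 with the dim array (adjusted p = 0.267 and 0.508), and without Abeta T12 replicate 1 the count at T16 was 4. The T16 comparisons were added after the data were seen.

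**Figure D3:**
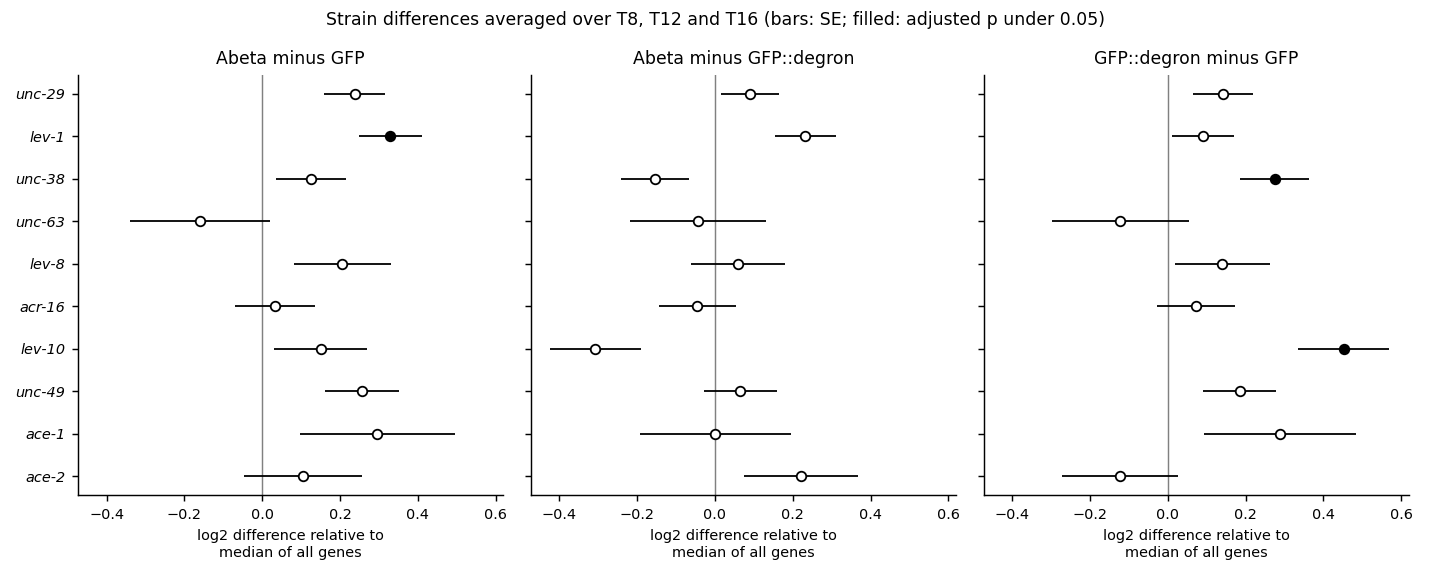
Strain differences of each gene averaged over T8, T12 and T16, as log2 differences relative to the median of all genes with SE bars. Filled points have an adjusted p under 0.05: lev-1 for Abeta minus GFP, and lev-10 and unc-38 for GFP::degron minus GFP.

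The arrays were also placed along the time course of GFP worms. A stage score, the position of an array along the T16 minus T8 change of GFP worms over 500 genes that leave out the members, was 0.47 ± 0.23 in Abeta, 0.082 ± 0.37 in GFP::degron and 0.80 ± 0.074 in GFP worms at T16 (SD, n = 4 each). With the score as a covariate no member passed between strains: lev-1 in Abeta minus GFP became 0.27 ± 0.087 (adjusted p = 0.234), and in GFP::degron minus GFP lev-10 became 0.26 ± 0.15 (adjusted p = 0.369) and unc-38 0.22 ± 0.12 (adjusted p = 0.331). The axis is built from the GFP arrays of T8 and T16, so GFP worms stand at its upper end at T16 by construction, and the score alone does not show that the strains differ in stage. The share of all genes that passed with this covariate is not given, so the lost calls are not a result about the members alone. Whether stage accounts for the differences was not tested.

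The other genes of these pathways were read as lists. Of 22 further acetylcholine receptor subunit genes, T16 minus T8 was lower in 3 and higher in 1 in Abeta worms, lower in 1 in GFP::degron and in 5 in GFP worms, where 3.52%, 1.84% and 12% of all genes were lower. The list medians were -0.16, -0.21 and -0.23, nearer 0 than the -0.61, -0.49 and -0.39 of the 10 members, a description with no test. Acr-8, which encodes another alpha-type subunit, fell in all 3 strains (-0.62 ± 0.12, -0.65 ± 0.12 and -0.54 ± 0.13 in Abeta, GFP::degron and GFP worms). Acr-19, a further subunit gene, fell in Abeta (-0.72 ± 0.24) and GFP worms (-0.98 ± 0.26). Acr-5 was higher at T16 in Abeta worms, by 2.55 ± 0.85 (adjusted p = 0.0491).

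Of the genes for receptor assembly and clustering, 6 of 13 fell in Abeta, 3 in GFP::degron and 7 in GFP worms, to be read against the same shares of all genes. Madd-4, a secreted organizer of both acetylcholine and GABA receptor clusters, fell in all 3 strains (-0.83 ± 0.21, -0.80 ± 0.21 and -0.97 ± 0.23). Rig-3, an immunoglobulin-domain protein that limits ACR-16 at synapses, did so as well (-0.47 ± 0.14, -0.55 ± 0.14 and -0.76 ± 0.15). Molo-1, an auxiliary protein of levamisole receptors, fell in Abeta (-0.68 ± 0.20) and GFP::degron worms (-0.73 ± 0.20). Frm-3, a FERM-domain protein, fell in Abeta (-1.11 ± 0.23) and GFP worms (-0.99 ± 0.25). Nlg-1, the worm neuroligin, a synaptic adhesion protein, was at -0.86 ± 0.23 in Abeta worms (adjusted p = 0.00993).

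Of the 3 muscarinic receptor genes, gar-2 and gar-3 fell in each strain, with gar-3 at -0.86 ± 0.17, -1.01 ± 0.17 and -0.80 ± 0.18. On the presynaptic side, unc-25, which makes GABA, fell in every strain (-0.87 ± 0.18, -0.78 ± 0.18 and -0.85 ± 0.20). The list of GABA synthesis, transport and other receptors had 1, 1 and 5 of 12 lower in Abeta, GFP::degron and GFP worms, with snf-11, the GABA transporter, at -0.82 ± 0.25 in GFP worms. Acetylcholine synthesis and transport had 1, 1 and 3 of 4 lower, with unc-17, the vesicular acetylcholine transporter, at -0.77 ± 0.20 in GFP::degron and -0.71 ± 0.21 in GFP worms. Ace-3, another acetylcholinesterase gene, fell in Abeta (-0.67 ± 0.19) and GFP worms (-0.63 ± 0.20). Acr-8, rig-3 and ace-3 were chosen after their values were seen, and the other genes by the size of their change. Over the 6 lists together, 14, 8 and 23 of 56 genes fell from T8 to T16 in Abeta, GFP::degron and GFP worms. From T12 to T16, 15, 8 and 31 of 56 fell, where 9.28%, 5.24% and 20.7% of all genes did. With the dim array these last counts were 0, 0 and 8 (limma, with 10, 4 and 26 of 56 at an unadjusted p under 0.05 in either direction), where 0.789%, 0.0117% and 7.19% of all genes fell. From T12 to T16, gar-3, cho-1 (the choline transporter) and snf-11 were among the 6 with the lowest differences in each strain, with snf-11 at -0.79 ± 0.23, -0.81 ± 0.22 and -1.41 ± 0.22. Acr-6 rose in Abeta (0.68 ± 0.19) and GFP worms (0.50 ± 0.18). In GFP worms ace-4 (1.91 ± 0.58), acr-9 (1.66 ± 0.60) and exp-1 (1.32 ± 0.48), an excitatory GABA receptor gene, rose as well. In this step 1 and 6 of 56 rose in Abeta and GFP worms, where 1653 and 2675 of 17118 genes did. From T8 to T16 in GFP worms, acr-6, ace-4, acr-9 and exp-1 were at 0.07, -0.07, 0.19 and 0.05, and 0 of the 56 rose. From T0 to T20, 25 of the 56 fell, against 9.21% of all genes, with the lowest differences for acr-19 (-2.46 ± 0.34), unc-3 (-2.18 ± 0.31), a transcription factor of cholinergic motor neurons, and unc-25 (-2.11 ± 0.23). Under the fit with the dim array none of the genes of these 6 lists passed from T8 to T16 in any strain by limma, and between 0 and 4 of a list had an unadjusted p under 0.05.

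Between GFP::degron and GFP worms over T8, T12 and T16, 27 of the 56 genes of these lists were higher in GFP::degron worms (28 with the dim array), where 15.2% of all genes were. All 3 muscarinic receptors passed, gar-2 by 0.59 ± 0.10, and so did 9 of 22 further receptor subunits, led by acr-5 (2.71 ± 0.49) and acr-12 (0.96 ± 0.23). Of the assembly and clustering genes 6 of 13 were higher, among them madd-4 (0.79 ± 0.12) and ric-3 (0.66 ± 0.10), a chaperone of acetylcholine receptors. Of the GABA genes 5 of 12 were higher, with unc-25 at 0.79 ± 0.11, and of the acetylcholine genes 3 of 4, with cho-1 at 0.55 ± 0.11, and snf-11 of the GABA list was at 0.86 ± 0.13. These counts became 3, 9, 6, 6 and 3 with the dim array. Gar-2 and cho-1 were chosen here after their values were seen. In Abeta minus GFP over the same times 6 of 56 were higher, against 2.68% of all genes, and 2 of 56 with the dim array, against 1.09%. The 6 were snf-11 (0.61 ± 0.14), madd-4 (0.51 ± 0.12), unc-25 (0.42 ± 0.11), unc-46 (0.41 ± 0.11), gar-2 (0.38 ± 0.10) and cha-1 (0.35 ± 0.087). In Abeta minus GFP::degron 5 of 56 were lower, against 2.65% of all genes. With the dim array none of the 56 was (limma, 3 at an unadjusted p under 0.05), against 0.228% of all genes. The 5 were ace-3 (-0.45 ± 0.11), cho-1 (-0.42 ± 0.11), unc-25 (-0.37 ± 0.10), ric-3 (-0.36 ± 0.10) and rig-3 (-0.32 ± 0.078). These strain comparisons share arrays with each other.

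Markers of some other cells changed over the same interval. From T8 to T16, 5, 1 and 8 of 12 pan-neuronal markers and 3, 1 and 5 of 5 pharyngeal muscle markers fell in Abeta, GFP::degron and GFP worms, where 3.52%, 1.84% and 12% of all genes fell. The pan-neuronal markers unc-31 (0.53 and 0.54) and rgef-1 (0.75 and 0.15) had positive differences in Abeta and GFP worms. The 7 intestine markers lay between -0.14 and 0.30 in Abeta and between -0.22 and 0.07 in GFP worms. All 6 germline markers rose in Abeta worms, and 4 rose in each of the other strains, where 8.87%, 2.82% and 10.9% of all genes rose in Abeta, GFP::degron and GFP worms. In the fit with the dim array 0 pan-neuronal and 0 pharyngeal markers passed in any strain, and 2, 0 and 5 germline markers did, where 4.53%, 0.38% and 15.3% of all genes rose. Of 12 body-wall muscle markers, 1 rose and 0 fell in Abeta, 0 moved in GFP::degron and 2 fell in GFP worms, with medians of -0.25, -0.38 and -0.08. The summed intensity of the pan-neuronal list lay between 2808 and 3838 at T16 in Abeta worms, against 3816 to 4925 at T8, between 3579 and 4326 in GFP::degron worms, against 4589 to 5523, and between 2543 and 2976 in GFP worms, against 3207 to 4667. For body-wall muscle the sums were 24779 to 29434, against 28096 to 33299 in Abeta, 24922 to 27862, against 29216 to 33277 in GFP::degron, and 27137 to 30285, against 31823 to 35797 in GFP worms. No marker of either list had an intensity under 1 on every array of a group at these times. The lowest pan-neuronal marker had a mean level of 1.24 in GFP::degron worms at T16, near the floor. The part of these markers in the changes of the 10 genes was not tested.

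**Figure D4:**
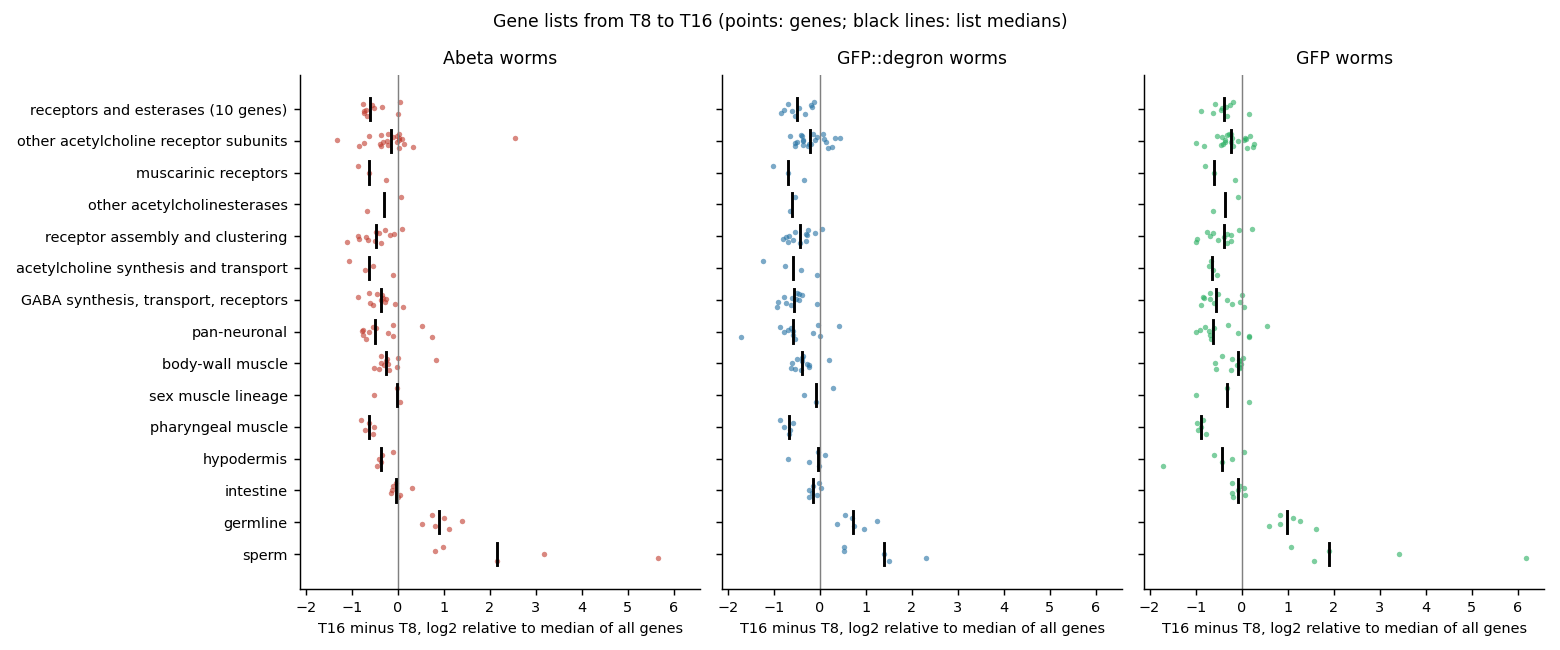
T16 minus T8 of each gene, by list, as log2 differences relative to the median of all genes, in Abeta (left), GFP::degron (middle) and GFP worms (right). Black lines are list medians. The 10 receptor and esterase genes, the pan-neuronal list and the pharyngeal muscle list have medians left of 0 in each strain, and the germline and sperm lists have medians right of it.

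The genes whose 18 group means lay nearest to those of a member, after each gene's mean was removed, were found by the root mean square difference. Candidates were the 12129 genes with a mean level of at least 5. For acr-16 the nearest of them was unc-49 (0.136 in log2), followed by gbb-2 (0.17), which encodes a GABA-B receptor subunit, and tsp-11 (0.186). For unc-49 it was gbb-2 (0.119), followed by acr-16 (0.136) and unc-1 (0.159), a stomatin-like gene. Lev-1 was nearest to tmem-24 (0.16), glc-4 (0.166) and acr-8 (0.167), unc-29 to gst-40 (0.157), ZC13.1 (0.158) and nlr-1 (0.159), and unc-38 to nhr-46 (0.12), nhr-129 (0.146) and uig-1 (0.149). Lev-8 was nearest to K09E9.3 (0.128), npr-12 (0.128) and D2085.7 (0.14), lev-10 to nhr-34 (0.144), nhr-71 (0.148) and spig-10 (0.155), and unc-63 to AH9.1 (0.122), fpn-1.2 (0.149) and srh-215 (0.153). The esterase genes had less close neighbours, T13H5.1 (0.174), dac-1 (0.196) and dop-1 (0.203) for ace-1 and rrp-1 (0.18), Y47G6A.9 (0.186) and nhr-158 (0.193) for ace-2. These values describe likeness over groups that share arrays, and carry no test.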

How the data were processed

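The authors deposited linear intensity values for 22625 probe sets on 47 arrays. The submitters' processing notes name Affymetrix Expression Console 1.1. How probes were summarised, how arrays were scaled and which genome build was used is not given in these sources. Controls (77) were left out, and the 2016 platform annotation named 1 gene for 20766 probe sets, which gave 17118 genes at 1 probe set per gene.

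Levels were log2(intensity + 1) with no further scaling. limma 3.58.1 in R 4.3.3 fitted 9 groups on 37 arrays (28 residual degrees of freedom), with eBayes and Benjamini-Hochberg adjustment over all genes. The number of arrays limits the precision. GFP T8 replicate 3 was left out because it was known to be dim, and the fit with all arrays is given beside it. T0, T4 and T20 were fitted with strain as a block. The arrays of a group are biological repeats per the labels. Deviations of same-numbered arrays of different groups had a median correlation of 0.018 over 137 pairs. For arrays with different numbers it was -0.006 over 470 pairs. These pairs pool strains and times, so they cannot show whether samples of 1 harvest were paired. The fit was tested on simulated data.

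The members, lists, tests and alternatives were chosen with earlier results of these data known. All 10 members are named. Of the pathway lists, up to 6 passing genes per comparison and direction could be named, by size of difference. For each member the 3 nearest genes with a mean level of at least 5 are given. The alternatives were quantile normalization, centring, a pseudocount of 16, a filter on dim genes, the mean of all probe sets, an intensity trend, array weights, the replicate block, the stage score, and leaving out each array or strain.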

Additional observations from a re-analysis of the deposited data

Results flagged for a closer look

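In 90 groups of 4 or 5 arrays, 11 groups had 1 array that stood apart from the rest by its gap over the range, a test that flags about 1 in 20 groups by chance. Of these, 5 were on GFP T8 replicate 3: unc-29 at 5.59 (the others at 7.96 to 8.11), unc-63 at 1.40 (5.14 to 5.55), lev-1 at 4.63 (7.16 to 7.66), lev-8 at 3.40 (5.76 to 6.20) and acr-16 at 0.06 (5.91 to 6.38). In GFP::degron worms at T8, replicate 1 stood low for ace-1 at 6.12 (6.95 to 7.12) and ace-2 at 3.59 (4.63 to 4.71), and replicate 3 stood high for unc-63 at 5.61 (4.73 to 4.86). In GFP worms at T12, replicate 2 stood high for lev-8 at 6.86 (5.92 to 6.09) and replicate 4 for ace-1 at 6.67 (6.22 to 6.29). In Abeta worms at T12, replicate 1 stood low for ace-2 at 4.05 (4.43 to 4.49).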

How the results depend on the processing

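Counts are of the 10 members past the threshold in either direction. Apart from the fit with GFP T8 replicate 3, the shares of all genes that passed under these settings are not given. The same holds for the fits that leave out an array or strain. A changed count is therefore not a result about the members alone. With GFP T8 replicate 3 included, 0 passed in T16 minus T8 in each strain, in Abeta minus GFP, and at T16 in Abeta minus GFP and GFP::degron minus GFP, and 1, 0 and 2 in T16 minus T12 in Abeta, GFP::degron and GFP worms. That array turned the unshifted T16 minus T8 change of GFP worms to positive for 6 of the 10: acr-16 (0.73, relative difference 0.41), unc-63 (0.65), ace-1 (0.34), unc-38 (0.14), unc-29 (0.12, relative difference -0.21) and lev-8 (0.07). Abeta minus GFP, 1 in the report, gave 2 under quantile normalization, centring, log2(intensity + 16), the filter on dim genes, an intensity trend and the replicate block, 6 with array weights and 0 with the stage score, which also gave 0 for GFP::degron minus GFP. Abeta minus GFP::degron gave 1 under quantile normalization, array weights and the replicate block. T16 minus T8 gave 8 in Abeta worms under quantile normalization, 2 in GFP::degron worms with the mean of all probe sets, and 1 for GFP::degron minus GFP with array weights. T16 minus T12 in GFP::degron worms gave 4 with centring, array weights or the replicate block, and 1 with the mean of all probe sets. At T16, Abeta minus GFP gave 0 with centring and 2 with array weights, and GFP::degron minus GFP gave 1, 7 and 4 with centring, array weights and the filter. The replicate block lost no call of a named member. It used 1 number across all times, and whether the numbers pair samples within a harvest was not tested. The cause of these changes was not tested.

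Leaving out each array in turn gave 3 to 7 in T16 minus T8 in Abeta (3 without T16 replicate 3), 1 to 4 in GFP::degron (1 without T16 replicate 2 or 3 or T8 replicate 2) and 2 to 7 in GFP worms (2 without T8 replicate 1). It gave 3 to 7, 1 to 3 and 6 to 7 in T16 minus T12, 0 to 2 in Abeta minus GFP (0 without GFP T8 replicate 2), 2 to 3 in GFP::degron minus GFP, 0 to 1 and 2 to 4 for the same pairs at T16, and 0 to 8 in T20 minus T0. Signal over background limits unc-63 and ace-2.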
